A study of Mus musculus with 6 samples.

Results

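The GIMAP genes (GTPases of immunity-associated proteins) measured here were Gimap1 and Gimap3 to Gimap9, taken as every probe set annotated with one of these 8 symbols. This gave 11 of the 45037 probe sets that were not controls and 8 of the 18193 genes, and 0 probe sets carried a GIMAP symbol together with another. All 11 probe sets lay above the array background, defined as the 95th percentile of 27 bacterial control probe sets, on all 6 arrays. Expression was measured on Affymetrix arrays in 3 samples of bone marrow plasma cells with the surface phenotype B220- CD138+, the CD138 antigen being syndecan-1, and in 3 samples of spleen B cells with B220+ CD23+. All samples came from C57BL/6 mice. Plasma cells came from mice boosted 7 days earlier with KLH, a protein antigen, and were enriched with beads through CD138 and then sorted, with 50000 to 70000 cells per array. Each B cell array used 2000000 to 3000000 naive cells, for which the labels name no immunisation. Tissue, boost, bead step and cell input changed together with cell type and cannot be told apart from it. Sex, by the markers Xist and Kdm5d given below, changed with cell type in part. Age, sex and any pooling of animals are not given in the labels. They also do not say that the replicates are separate animals, and the p-values therefore reflect only how much these samples vary, possibly for technical reasons.

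GIMAP proteins bind and hydrolyse GTP through a domain related to that of the septins, and several of them sit on intracellular membranes. Their genes lie together in a cluster on chromosome 6 and are expressed mainly in lymphocytes, T cells above all, where the family is known for its part in the survival and maintenance of resting cells. Rodents without functional Gimap5 lose circulating lymphocytes.

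B cell array 1 stood apart, with correlations of log2 values across probe sets of 0.933 and 0.926 with B cell arrays 2 and 3, which had 0.992 with each other. T cell markers were higher on it: of 17 measured, 16 were above the mean of B cell arrays 2 and 3. The background percentile (40.6 against 23.0 and 25.2) and the array median (130 against 88.1 and 86.7) were higher on it too. Cd4 counts among the 16 although it lay under background there. How far this raised the dim markers was not tested. The sum of the T cell marker intensities, leaving out Cd2, which was bright on all B cell arrays, was 6667 against 869 and 928. On the plasma cell arrays it was 1723, 1644 and 2549. These plasma cell sums include Cd4 (311, 393 and 459) and Cd247 (349, 341 and 288), both called higher in plasma cells (3.60 and 0.65). On B cell array 1 Cd4 was at 23.8 against 13.3 and 14.3, and Cd247 at 214 against 183 and 207. Markers of other blood cells were raised on B cell array 1 as well, by a median log2 difference of 2.53 for 9 granulocyte genes, 1.55 for 9 NK cell genes and 1.33 for 5 erythroid genes. The summed intensity of the granulocyte genes was 13076 there, 2951 and 1935 on B cell arrays 2 and 3, and 8747, 20981 and 15148 on the plasma cell arrays. For the NK cell genes the sums were 3499 against 1221 and 1162, with 1061, 1016 and 1745 on the plasma cell arrays. Erythroid genes summed to 1429 against 86.4 and 103, with 389, 511 and 203 in plasma cells, and Slc4a1 alone was at 1158 on B cell array 1. Within these lists Mpo (31.7 against 62.9 and 64.2), Prf1 (623 against 781 and 763) and Hba-a1 (12.8 against 21.1 and 33.9) were lower on that array. The median difference there was 0.78 for 6 stromal, 0.47 for 6 megakaryocyte and 0.29 for 8 endothelial genes. For 7 monocyte and macrophage genes it was 0.20, and for 6 dendritic cell genes −0.03. Cd3e, a chain of the T cell receptor complex, was at 1965 on B cell array 1, at 27.2 and 36.5 on B cell arrays 2 and 3, and at 225, 175 and 502 on the plasma cell arrays. Xist, which marks female samples, was at 8408 on B cell array 1, at 30.8 and 18.1 on the other B cell arrays and between 8070 and 8702 on the plasma cell arrays. Once B cell array 1 is left out, sex cannot be told apart from cell type. Of the markers fixed for the sorted types, all 10 measured B cell genes were lower and all 9 measured plasma cell genes higher in plasma cells. Among all genes 12.3% were lower and 17.6% higher. This checks the labels, in part through the sort antigens themselves, as the lists hold Sdc1 (CD138), Fcer2a (CD23) and Ptprc (B220). The calls of Cd79a (−0.57) and Cd79b (−0.45) held in 9 and 8 of 16 alternative settings.

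The upstream sequences of 5 members are those of the 3 genes with the largest and the 2 with the smallest difference between the cell types. This order uses the brightest probe set of each gene. With the mean of probe sets the log2 fold change of Gimap6 (−1.01) was larger in size than that of Gimap1 (−0.85). They are the 250 bases before an annotated start in RefSeq, build GRCm38.p6, read 5′ to 3′ on the strand of the gene, and for Gimap8, which has a further start, the more upstream window is given. Capitals mark short motifs found on either strand, none of which contains another. Factors of the ETS family bind the letters GGAAGT, and RUNX factors bind the letters ACCACA. Factors of the KLF family bind the letters CACCC, and FOXO factors bind the letters GTAAACA. The letters TGGGAA are bound by Ikaros factors. The TATA box was searched as the letters TATAAA.
Gimap3 (chr6:48770852-48771101, minus strand): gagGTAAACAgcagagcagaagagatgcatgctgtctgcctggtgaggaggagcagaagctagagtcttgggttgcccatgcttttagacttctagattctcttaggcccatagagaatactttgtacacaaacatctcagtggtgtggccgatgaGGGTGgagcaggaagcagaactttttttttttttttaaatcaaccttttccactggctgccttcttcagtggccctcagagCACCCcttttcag
Gimap8 (chr6:48646984-48647233, plus strand): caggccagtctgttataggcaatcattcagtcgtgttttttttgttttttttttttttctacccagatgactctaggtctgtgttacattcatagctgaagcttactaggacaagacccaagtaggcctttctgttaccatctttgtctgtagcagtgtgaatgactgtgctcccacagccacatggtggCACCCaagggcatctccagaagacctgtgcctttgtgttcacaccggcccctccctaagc
Gimap5 (chr6:48745947-48746196, plus strand): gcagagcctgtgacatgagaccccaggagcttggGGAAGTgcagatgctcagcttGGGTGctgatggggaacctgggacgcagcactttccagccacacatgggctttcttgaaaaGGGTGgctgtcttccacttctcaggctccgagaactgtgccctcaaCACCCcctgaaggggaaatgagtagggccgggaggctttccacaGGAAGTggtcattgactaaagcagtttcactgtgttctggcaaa
Gimap6 (chr6:48708245-48708494, minus strand): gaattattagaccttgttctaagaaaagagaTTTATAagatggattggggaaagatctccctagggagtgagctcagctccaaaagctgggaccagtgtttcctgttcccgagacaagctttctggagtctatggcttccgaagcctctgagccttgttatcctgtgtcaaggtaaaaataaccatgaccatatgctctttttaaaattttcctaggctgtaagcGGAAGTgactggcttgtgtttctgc
Gimap9 (chr6:48675885-48676134, plus strand): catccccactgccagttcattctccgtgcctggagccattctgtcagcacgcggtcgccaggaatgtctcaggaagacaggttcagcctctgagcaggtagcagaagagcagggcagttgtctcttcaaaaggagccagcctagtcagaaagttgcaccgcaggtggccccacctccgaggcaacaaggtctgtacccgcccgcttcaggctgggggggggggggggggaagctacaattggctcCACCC
All 8 genes matched the RefSeq table, with 9 windows. CACCC occurred in 6 of the 9 windows, of 5 genes, and in 52% of all 32851 windows of that length. The windows of Gimap8 overlap and share a CACCC site, which lies 60 and 187 bases before their starts. ACCACA occurred in 3 windows, those of Gimap1, Gimap4 and Gimap7, against 14% of all windows, and GGAAGT in 2, those of Gimap5 and Gimap6, against 19.7%. Among the members GTAAACA was in the Gimap3 window only (3.17% of all windows), TATAAA in that of Gimap6 only (12.4%) and TGGGAA in 0 of 9 (21.6%). The windows of Gimap3, Gimap5 and Gimap8, with the largest differences, held CACCC, and so did that of Gimap9, whose difference was the smallest. The member windows had a median of 3 CG dinucleotides and a median GC content of 47.6%, against medians of 6 and 52.4% over all windows. These matches describe letters in a window and show no binding.

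All 8 GIMAP genes were lower in plasma cells than in B cells, and 0 were higher, by limma on log2(intensity + 16) with Benjamini-Hochberg adjustment over all genes at a threshold of 0.05. By the same rule 12.3% of all genes were lower and 17.6% higher. The median log2 fold change was −1.11 over the 8 genes and −0.06 over all genes, and 5 of the 8 genes fell by at least 2-fold, a size and call reached by 6.78% of all genes. The level in plasma cells ranged from 16.5% of the B cell mean for Gimap3 to 72.4% for Gimap9. For every member the highest plasma cell array lay under the lowest B cell array, as it did for 22.4% of all genes. In sorted bulk samples fewer cells that express a gene and less RNA per cell cannot be told apart. The calls of Gimap3, Gimap8, Gimap5 and Gimap4 held in all 16 alternative settings and that of Gimap7 in 15. Those of Gimap1, Gimap6 and Gimap9 were lost when any array other than B cell array 1 was left out.

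**Figure D1:**
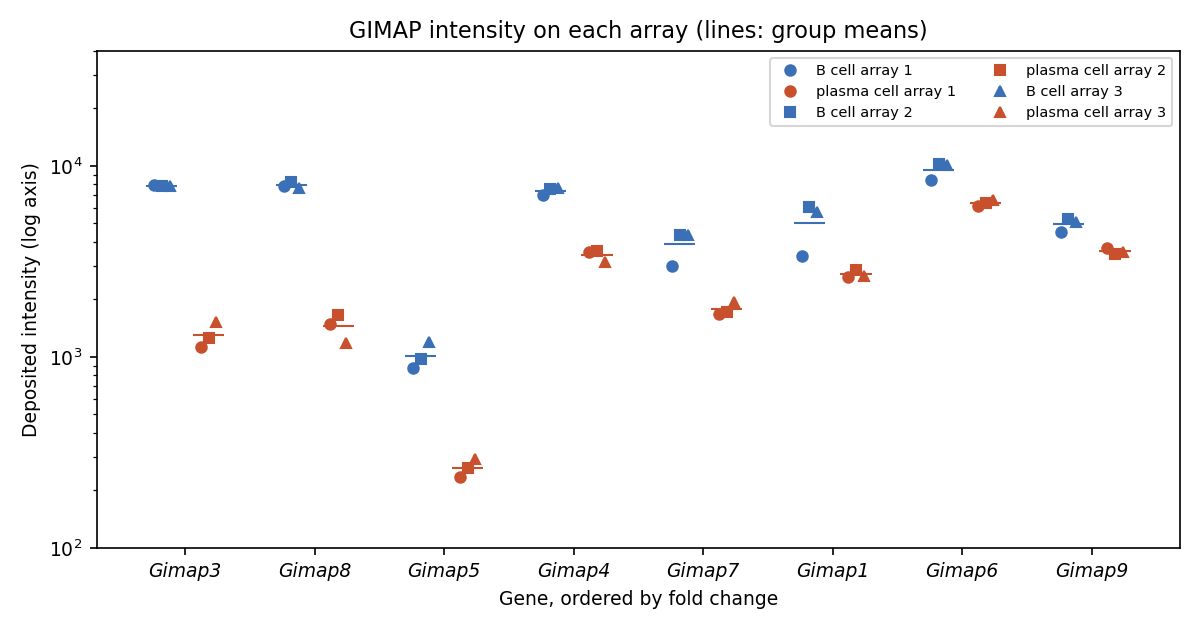
Deposited intensity of the 8 GIMAP genes on a log axis, with a point for each of 3 B cell arrays (blue) and 3 plasma cell arrays (red) and a line at each group mean. Every red point lies under every blue point of its gene, with the widest gaps for Gimap3, Gimap8 and Gimap5 and narrow ones for Gimap1, Gimap6 and Gimap9.

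Gimap3, Gimap8 and Gimap5 fell most. Gimap3, a close relative of Gimap5 known as a modifier of mitochondrial DNA segregation in mouse blood cells, had intensities of 7906, 7868 and 7827 on the B cell arrays and of 1121, 1252 and 1517 on the plasma cell arrays. The B cell values differed by little among themselves (SD 39.5, n = 3), B cell array 1 included. The log2 fold change was −2.60 ± 0.15 (SE, adjusted p = 0.000128), and 1.24% of genes had a lower one. Gimap8, a long member of the family with several GTP-binding domains in a row, had 7861, 8204 and 7681 in B cells and 1489, 1649 and 1186 in plasma cells. Its B cell arrays were again close to each other, and its log2 fold change was −2.46 ± 0.16 (adjusted p = 0.000186). Gimap5, a protein of lysosomal membranes needed for the survival of peripheral T cells, had 877, 971 and 1198 in B cells and 235, 261 and 293 in plasma cells. All plasma cell arrays were well under all B cell arrays, and it fell by a log2 fold change of −1.88 ± 0.17 (adjusted p = 0.000579). Gimap3 and Gimap5 are close in sequence, and whether their probes tell the transcripts apart was not tested. The 95% intervals of neighbours in the order Gimap3 (−2.96 to −2.24), Gimap8 (−2.84 to −2.07) and Gimap5 (−2.28 to −1.47) overlapped, while that of Gimap5 did not reach that of Gimap4, the next gene (−1.41 to −0.82).

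Gimap4 and Gimap7 took a middle place. Gimap4, which affects the pace of T cell death, had 7018, 7570 and 7620 in B cells and 3535, 3570 and 3136 in plasma cells, with little spread in either group. Its log2 fold change was −1.11 ± 0.12 (adjusted p = 0.00119). Gimap7, whose human counterpart hydrolyses GTP as a dimer, had 2985, 4323 and 4328 in B cells and 1674, 1715 and 1927 in plasma cells. B cell array 1 was the low one of its group, and the log2 fold change was −1.10 ± 0.19 (adjusted p = 0.00672). After median centring, which moved the log2 fold change of all genes up by a median of 0.12, the call of Gimap7 was lost (−0.99, adjusted p = 0.0541). The intervals of all neighbours in fold order from Gimap4 to Gimap9 overlapped.

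The smallest differences were those of Gimap1, Gimap6 and Gimap9. Gimap1, which mature B and T cells need to survive, had 3367, 6055 and 5717 in B cells and 2616, 2838 and 2651 in plasma cells. B cell array 1 lay nearer to the plasma cell arrays than to the other B cell arrays. The log2 fold change was −0.85 ± 0.25 (adjusted p = 0.0461) with all arrays and −1.12 (adjusted p = 0.000721) without B cell array 1. In the latter fit sex cannot be told apart from cell type. Leaving out any other array gave adjusted p between 0.114 and 0.136. Gimap6, which binds the autophagy protein GABARAPL2, had 8426, 10165 and 10062 in B cells and 6185, 6367 and 6583 in plasma cells. Its groups were separate but close, with a log2 fold change of −0.58 ± 0.13 (adjusted p = 0.0194, and 0.0565 to 0.0844 without any array other than B cell array 1). Gimap9 had 4482, 5256 and 5100 in B cells and 3731, 3459 and 3555 in plasma cells, so that the nearest arrays of the groups were 1.2-fold apart. Its log2 fold change was −0.46 ± 0.12 (adjusted p = 0.0353, and 0.0995 to 0.127 without any array other than B cell array 1). Median centring, under which 6.83% of all genes were called lower, also ended these 3 calls, with adjusted p of 0.195 for Gimap1, 0.291 for Gimap6 and 0.429 for Gimap9, and an added constant of 1 ended that of Gimap1 (0.0618).

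Gimap4, Gimap6 and Gimap7 each had a further, dimmer probe set. In a fit over all 45037 probe sets 10 of the 11 members were called lower and 0 higher, where 12.8% of all probe sets were lower and 13.4% higher. In 11 of 11 all plasma cell arrays lay under all B cell arrays, as in 24.6% of all probe sets. The probe set not called was that of Gimap1, with the same values as in the gene table but adjusted p = 0.0519 among more features. The probe sets of Gimap4 gave log2 fold changes of −1.11 and −1.19 and those of Gimap7 −1.10 and −1.12, differences smaller than their standard errors. Those of Gimap6 were further apart. The dimmer one, 1456762_at, was at 3558, 2564 and 3371 in B cells and 1167, 856 and 1463 in plasma cells. Its log2 fold change was −1.45 ± 0.24 (adjusted p = 0.00742), against −0.58 ± 0.14 (adjusted p = 0.0275) for the brighter one, 1427891_at, in this fit. The size of the fall of Gimap6 therefore depends on the probe set, and the mean of both gave −1.01.

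**Figure D2:**
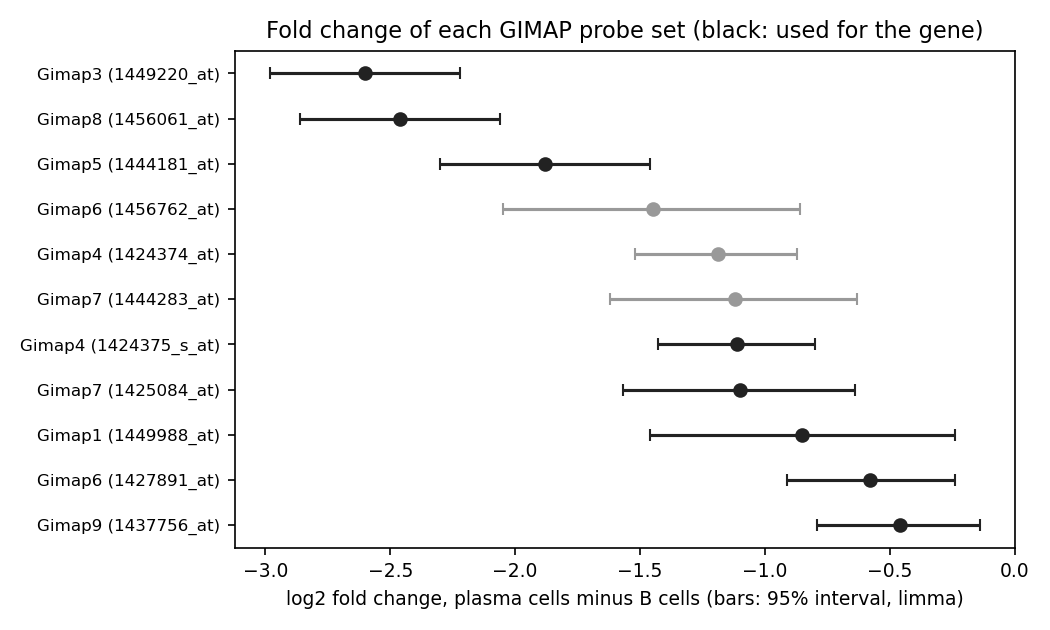
Log2 fold change of the 11 GIMAP probe sets, plasma cells minus B cells, with 95% intervals from limma over all probe sets; black points are the probe sets that stand for the gene, grey points the dimmer ones. All intervals lie under 0, from Gimap3 at −2.60 to Gimap9 at −0.46, and the points of Gimap6 lie at −1.45 and −0.58.

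B cell array 1, with its raised markers of T cells, granulocytes, NK cells and erythroid cells, did not have raised GIMAP values. Relative to the mean of B cell arrays 2 and 3, the 8 genes differed on it by a median of −0.24 on the log2 scale, from −0.80 for Gimap1 to 0.01 for Gimap3. The 17 T cell markers differed by a median of 1.50, with 5.38 for Cd3e. These differences start from unlike levels on B cell arrays 2 and 3, 27.2 and 36.5 for Cd3e but 971 and 1198 for Gimap5, the dimmest member. A small admixture can therefore move a dim marker far and a bright gene little. Whether other cells added to the GIMAP values was not tested on B cell array 1. Of the 8 genes, 6 had their lowest B cell value on it, while the dimmer probe set of Gimap6 was 0.27 higher on it. Without that array all 8 genes were called lower, with log2 fold changes from −0.53 for Gimap9 to −2.59 for Gimap3, where 21.1% of all genes were called lower. Among the plasma cell arrays, array 3 had the highest T cell marker sum, although Cd8a, Cd8b1 and Cd247 were lowest on it. Gimap3, Gimap5, Gimap6 and Gimap7 were highest on it, and Gimap4 and Gimap8 were lowest. The dimmer probe set of Gimap7 was lowest on that array, with 265, 318 and 211 on plasma cell arrays 1, 2 and 3. The part of other cells in the plasma cell signal of the family was not tested.

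**Figure D3:**
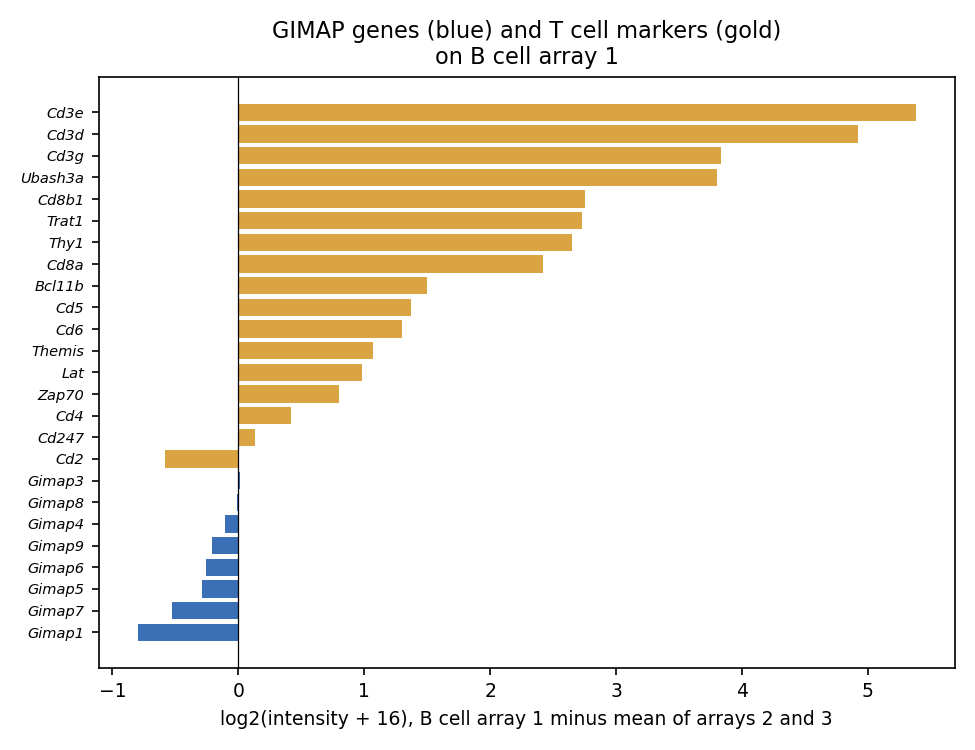
Difference in log2(intensity + 16) between B cell array 1 and the mean of B cell arrays 2 and 3 for the 8 GIMAP genes (blue) and 17 T cell markers (gold). The T cell markers other than Cd2 lie to the right of 0, up to 5.38, and the GIMAP genes lie between −0.80 and 0.01.

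Along chromosome 6 the members run, in the order of the RefSeq gene table of GRCm38.p6, Gimap8, Gimap9, Gimap4, Gimap6, Gimap7, Gimap1, Gimap5 and Gimap3. The largest falls lay at the ends of the cluster, Gimap8 at the start and Gimap5 and Gimap3 at the other end, with the 5 smaller ones between them. The 5 nearest measured genes on each side were mixed: of these 10, 3 were lower and 4 higher in plasma cells, against 12.3% and 17.6% of all genes. Next to Gimap3 among measured genes lay Tmem176b and Tmem176a, which encode related membrane proteins. Tmem176b was at 116, 225 and 192 in B cells and at 11411, 11571 and 10647 in plasma cells, a log2 fold change of 5.90 ± 0.24 (adjusted p = 5.14e-05). Tmem176a rose likewise, from 82.0, 132 and 125 to 10370, 10282 and 9530 (6.31 ± 0.19, adjusted p = 2.66e-05). Adjacent measured genes at this end of the cluster thus changed in opposite directions, and the calls of Tmem176a and Tmem176b held in all 16 alternatives. Beyond them Aoc1, at or under background on all arrays, and Doxl1 (−0.43) were not called. Gpnmb, a glycoprotein of lysosomes and melanosomes, did not exceed background on any B cell array and was at 314, 471 and 456 in plasma cells, a level at least 14.2-fold above them when no constant is added (adjusted p = 0.000128). On the Gimap8 side Lrrc61 (−1.23 ± 0.20), Rarres2, which encodes the chemoattractant chemerin (−1.35 ± 0.17), and Zfp775 (−0.56 ± 0.13) fell and Repin1 (0.99 ± 0.27) rose, while AI854703 (−0.14) was not called. The calls of Zfp775 and Repin1 held in 8 of 16 alternatives each. That of Zfp775 was lost without B cell array 2 or 3 or plasma cell array 1 or 2 (adjusted p up to 0.0954), and that of Repin1 without any array other than B cell array 1 (up to 0.12). With the mean of probe sets the call of Rarres2 was lost (adjusted p = 0.0887) and AI854703 was called higher (0.55, adjusted p = 0.0142).

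**Figure D4:**
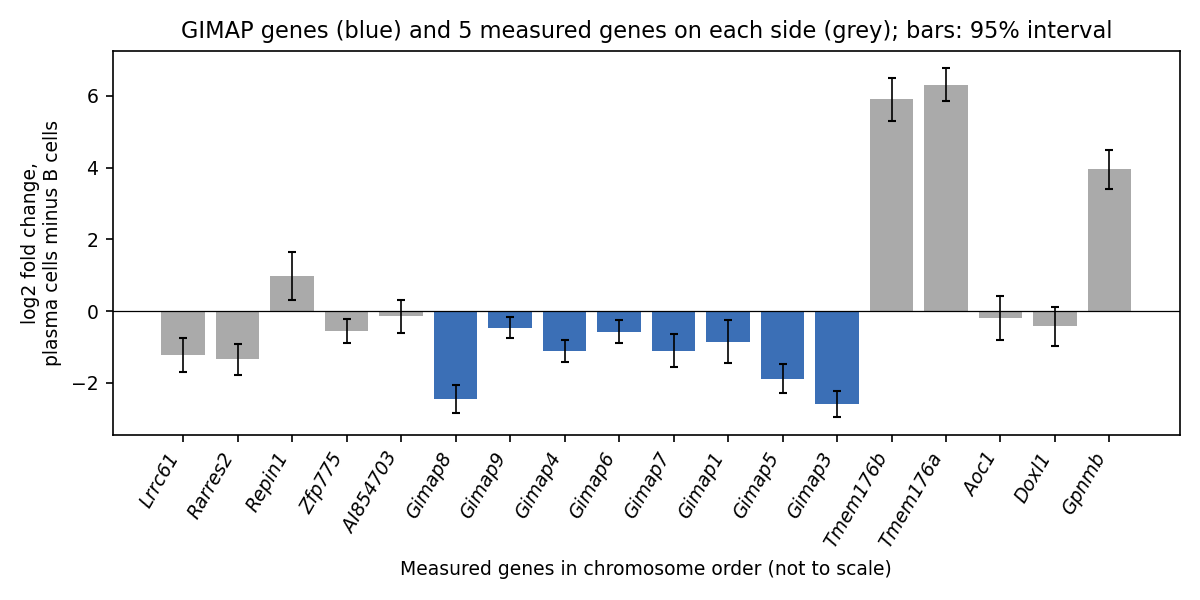
Log2 fold change, plasma cells minus B cells, with 95% intervals, of the GIMAP genes (blue) and of 5 measured genes on each side (grey), in chromosome order and not to scale. Gimap8 (−2.46) and Gimap3 (−2.60) stand at the ends of the cluster, and Tmem176b (5.90) and Tmem176a (6.31) follow Gimap3.

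Among 20 measured genes of lymphocyte quiescence and homing, the setting in which the family is best known, 11 fell and 0 rose, where 12.3% of all genes fell and 17.6% rose. Their median log2 fold change was −0.94 against −0.06 over all genes. The largest falls among the called genes were those of the lymph node homing receptor Ccr7 (−5.72 ± 0.37), the egress receptor S1pr1 (−4.02 ± 0.22), and Slfn2 (−2.57 ± 0.20), which maintains quiescence in T cells. S1pr1 was at 1785, 1522 and 1615 in B cells and at 58.5, 104 and 101 in plasma cells. Klf2, a transcription factor of lymphocyte quiescence and of S1pr1 expression, was at 3311, 6273 and 6544 in B cells and at 317, 173 and 2762 in plasma cells. Its log2 fold change of −3.21 ± 1.01 was not called (adjusted p = 0.0606), and without plasma cell array 3 it was −4.36 and called (adjusted p = 0.00328). Without B cell array 1, 13 of the 20 were called lower and 1, the cytokine receptor Il7r, higher (4.58), where 21.1% of all genes were lower and 22.7% higher. Il7r was at 651, 36.1 and 30 in B cells and at 963, 559 and 2834 in plasma cells. With all arrays it was not called (3.32 ± 1.18, adjusted p = 0.0853), and it was called in 4 of 16 alternatives. Of 8 measured genes whose proteins are reported to bind GIMAP proteins or to act downstream of them, 1 rose and 0 fell, against 17.6% and 12.3% of all genes, with a median of 0.14. The count that rose was 1 to 3 over the 16 alternatives and 2 without plasma cell array 3. Bcl2l1, which encodes the survival protein BCL-XL, a reported partner of Gimap3 and Gimap5, rose from 194, 180 and 165 to 1205, 1272 and 1369 (2.73 ± 0.12, adjusted p = 7.09e-05). Septins, the cytoskeletal GTPases to which the family is related in structure, had 5 of 12 measured members higher and 1 lower, against the same 17.6% and 12.3%, with a median of 0.35. Only 2 were higher without any one array other than B cell array 1, and without that array 6 were higher and 2 lower. With an added constant of 1, quantile normalization or the replicate block 3 were higher. Septin9 (0.92 ± 0.12) and Septin11 (0.81 ± 0.11) rose and Septin6 (−0.68 ± 0.12) fell, the last call being lost after median centring (adjusted p = 0.135). Septin8 rose by 1.28 ± 0.35 and lay over background on 1 of 3 B cell arrays, a call lost without any array other than B cell array 1 (adjusted p 0.0648 to 0.126) or with an added constant of 1 (0.0591).

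The genes whose profile over the 6 arrays was most like the mean of the centred GIMAP values were Traf5, an adaptor of TNF receptors (Pearson r = 0.9999), Abi3 (0.9998), Gad1 (0.9997), the adhesion receptor Cd2 (0.9996) and the B cell kinase Blk (0.9993). These values describe 6 arrays that share the split into cell types and the lower value of B cell array 1, and 360 of 15826 genes exceeded 0.99. Traf5 was at 1894, 2869 and 2998 in B cells and 285, 332 and 324 in plasma cells. Gad1 was at 338, 671 and 631 in B cells and within background on the plasma cell arrays.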

How the data were processed

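The deposited table holds 1 intensity on a linear scale per probe set and array, for 45101 probe sets and 6 samples. Per the labels' protocols, total RNA was amplified with NuGEN Ovation V2 before biotin labelling. The authors' probe summary, background correction and normalization of these intensity values are not given in the sources used here. Upper quartiles lay between 625 and 684. The median was 130 on B cell array 1 and 86.7 to 95.1 on the other arrays. The background percentile was 40.6 on B cell array 1 and 41.8 on plasma cell array 3, against 23.0 to 26.8 on the others. The 64 control probe sets were left out. Symbols came from the platform annotation of 2016, updated through Entrez identifiers to RefSeq (GRCm38.p6, 34741 of 34945 matched). Probe sets with several symbols (932) or none (9160) stayed out of the gene-level fit.

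Values were transformed as log2(intensity + 16), so folds of dim genes are understated. Where a gene had several probe sets, the one with the highest mean of these values was used. Plasma cells were compared with B cells with limma 3.58.1 in R 4.3.3 (lmFit, eBayes), adjusted over all 18193 genes or 45037 probe sets. SE is the standard error of the log2 fold change. Precision is limited by the number of arrays. The procedure was tested on simulated data. Alternatives were the added constant, scaling, choice of probe sets, filter, trend, array weights, replicate block and leaving out each array. Every GIMAP gene and the 5 measured genes on each side were named, with up to 3 called genes per direction of each list, the 5 genes most like the family, and some further genes, Cd3e, Xist, Il7r and Klf2, after their values were seen. Members and lists were chosen with earlier results of these data known.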

Additional observations from a re-analysis of the deposited data

How the results depend on the processing

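Over the 16 alternatives the log2 fold change of all 8 GIMAP genes was negative in all 128 fits, of which 105 were called, and 0 genes or probe sets of the family were called higher. The count of GIMAP genes called lower, 8 with all arrays, was 4 after median centring (Gimap3, Gimap4, Gimap5 and Gimap8) and 5 to 8 without 1 array each. GIMAP probe sets called lower numbered 6 after median centring and 8 to 11 without 1 array each. Among all genes, 2246 were lower and 3193 higher. Lower genes numbered 1243 after median centring, 4654 with array weights and 1347 to 3830 without 1 array each, and higher genes numbered 4840 with array weights and 2224 to 4121 without 1 array each. The cause was not tested. Fits without 1 array rest on fewer samples, and array weights gave B cell array 1 a weight of 0.0938. Replicate numbers are shared by both groups, and the deviations of same-numbered arrays correlated by only 0.00 to 0.05. With so few arrays these correlations cannot decide whether same-numbered samples came from the same animals. On the B cell arrays other than array 1 Xist, which marks female samples, was at 30.8 and 18.1. The plasma cell arrays of the same numbers had 8070 and 8244. Kdm5d, which marks male samples, was at 1507 and 1576 on these B cell arrays and at 7.89 and 3 on these plasma cell arrays. By both markers the samples numbered 2 and 3 differed in sex between the groups, so the replicate block does not pair the same animals there. The arrays numbered 1 were both high in Xist (8408 and 8702), and whether they share animals was not tested. With the replicate block 5 GIMAP genes were called lower (not Gimap1, Gimap6 and Gimap9), as were 1664 of all genes. Signals of the family lay at least 5.04-fold over background on every array.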
